A study of Mus musculus with 12 samples.

Results

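The TGF-β1 response of mouse renal tubular epithelial cells silenced for fumarate hydratase was taken as the difference between 2 groups of libraries. The first is KD+TGF-β1, silenced cells given TGF-β1, and the second is KD, silenced cells without the cytokine, with 3 libraries each, 6 of the 12 libraries of the series. All cells are of the line the labels call mTEC. The labels state neither the silencing reagent, the dose of TGF-β1 nor the length of treatment, and they do not say whether the libraries of a group come from separate cultures, so p-values measure the spread between these libraries. The other 6 libraries are control cells with TGF-β1 (NC+TGF-β1) and without it (NC). They served to ask whether the response of silenced cells differs from that of control cells. The KD+TGF-β1 and KD libraries come in separate deposited tables, so cytokine and table change together and cannot be told apart in any value of the response.

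TGF-β1 is a secreted cytokine that binds a pair of receptor kinases, the type II receptor Tgfbr2 and the type I receptor Tgfbr1. The activated receptors phosphorylate Smad2 and Smad3, which enter the nucleus with Smad4 and switch target genes on or off. In renal tubular epithelium the cytokine is known for cytostasis, for the loss of epithelial traits, for induction of matrix and contractile genes and for its place in kidney fibrosis. Fumarate hydratase, the product of Fh1, adds water to fumarate to give malate, a step of the tricarboxylic acid cycle. Fumarate that builds up without it can modify proteins and inhibit enzymes that use 2-oxoglutarate.

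Levels are given as CPM, counts scaled to library size, and changes on the log2 scale with their standard error (SE), KD+TGF-β1 minus KD. The silenced gene, Fh1 (Entrez 14194), had 15, 13.7 and 13.8 CPM in KD+TGF-β1 libraries, against 28.6, 31.3 and 29.7 CPM in KD libraries. All KD+TGF-β1 values lie below all KD values, and both groups lie below the control cells, which had 49.6, 49.7 and 49.4 CPM in NC+TGF-β1 and 51.4, 53.9 and 53.5 CPM in NC libraries. Fh1 thus stood at 47.5% of its KD level (log2 change -1.07, SE 0.0532, adjusted p = 4.22e-10). In control cells the same contrast was -0.09, and the difference of the 2 changes was -0.98 (adjusted p = 8.18e-06, and 5.14e-05 without KD+TGF-β1 replicate 1). The extent of silencing therefore differed between the groups compared here. Akap12, a scaffold of protein kinase A named in the title of the series, had 887, 895 and 851 CPM in KD+TGF-β1 libraries, against 669.9, 665 and 645 CPM in KD libraries, with no overlap (log2 change 0.41, SE 0.0293, adjusted p = 2.15e-08).

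Library totals were 17651213 to 18462872 estimated counts over the 12 libraries, and 11707 of the 15802 genes listed in both tables passed the filter on low counts and were tested. The cells carried the epithelial markers of their label. The 13 markers of tubular epithelium summed to 5626 to 5749 CPM in KD+TGF-β1 libraries and 3897 to 4068 CPM in KD libraries, mostly the keratins Krt8 and Krt18. Of these markers Lhx1, Slc34a1 and Lrp2, the last 2 of the proximal tubule, were at or near 0, with at most 13 counts in a library, the 13 being those of Lrp2 in KD+TGF-β1 replicate 1. The same library stood apart in a further respect. It held 558 counts of 12 markers of pluripotent cells that were not among the genes tested, against 1 and 1 in the other 2 libraries of its group and 0, 0 and 1 in KD libraries. Values without that library are given beside the results that turn on it. The 13 markers of endothelium and blood summed to 4.42 to 5.52 CPM in KD+TGF-β1 libraries and 4.05 to 4.66 CPM in KD libraries, and those of fibroblasts are given beside the matrix genes. Members of the endothelium and blood list moved in opposite directions. Cdh5, the cadherin of endothelium, had 55, 54 and 68 counts in KD+TGF-β1 libraries and 8, 10 and 14 in KD libraries (log2 change 2.54), and Cd68, a lysosomal protein of macrophages, had 15, 14 and 18 counts in KD+TGF-β1 libraries and 60, 65 and 66 in KD libraries (-1.93). The part of such cells in the results was not tested.

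Silenced cells changed most of their measured transcripts in the TGF-β1 libraries, most of them by little. Of the 11707 genes tested, 7616 were called, which here means an adjusted p under 0.05 in edgeR's quasi-likelihood test (65.1%), 3671 of them higher (31.4%) and 3945 lower (33.7%). The median change of the called genes was 1.27-fold among those higher and 1.35-fold among those lower, and 1140 genes (9.74%) passed 2-fold as well, 470 higher (4.01%) and 670 lower (5.72%). The 3 KD+TGF-β1 and 3 KD libraries did not overlap for 7491 of the called genes, against 72.9% of all genes tested. Without KD+TGF-β1 replicate 1, 6984 of the 7616 genes (91.7%) were called in the same direction, against 60.7% of all genes tested. In each gene group below, the number called higher and the number called lower moved by at most 2 without that library. Since so many genes were called, the counts of each gene group below are to be read against these shares, and against the median log2 change of all genes tested, which was -0.01. In bulk libraries of this kind, a change in the share of cells and a change of RNA per cell cannot be told apart.

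**Figure D1:**
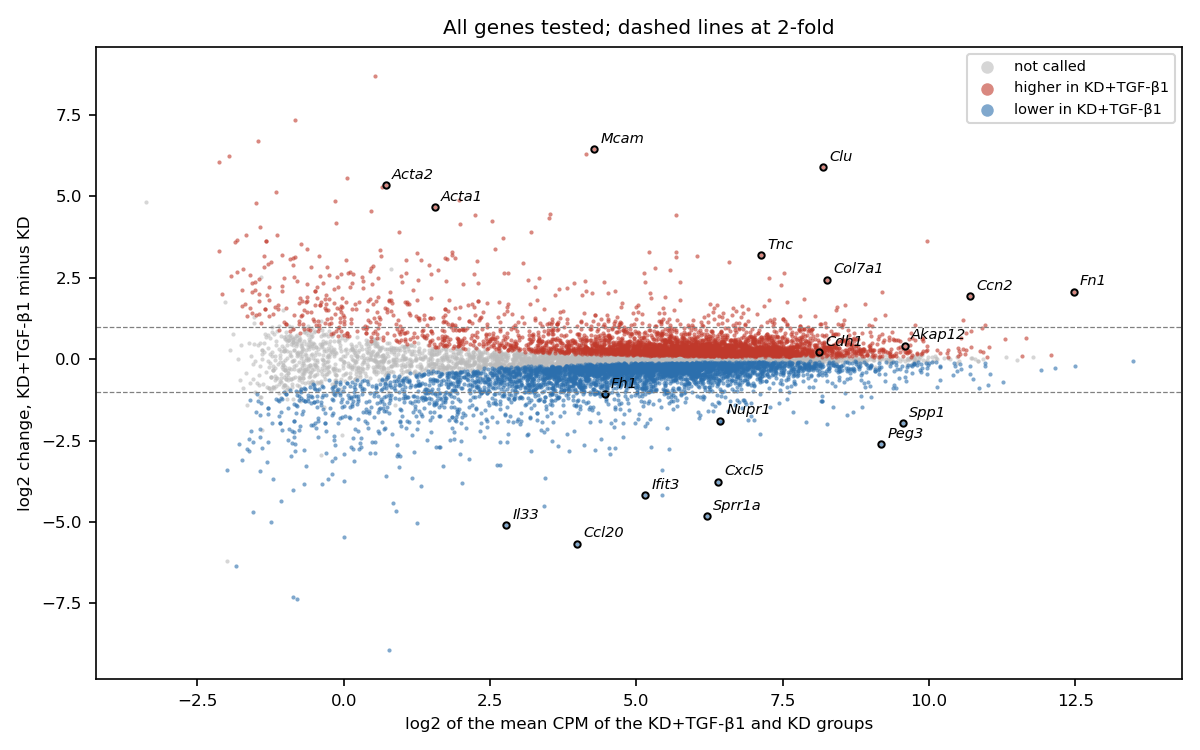
Each point is 1 of the 11707 genes tested, with the log2 of its mean CPM over the KD+TGF-β1 and KD groups on the horizontal axis and its log2 change, KD+TGF-β1 minus KD, on the vertical axis. Red genes were called higher (3671), blue genes lower (3945) and grey genes were not called. Most called genes lie inside the dashed lines at 2-fold, while Clu, Tnc and Fn1 stand far above them at high expression and Sprr1a, Cxcl5 and Ccl20 far below.

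The largest increases among genes of at least 5 CPM in a group were those of a surface adhesion molecule, an actin-binding protein and a secreted chaperone. Mcam, an adhesion molecule of the immunoglobulin family, had 39.7, 38.4 and 36.9 CPM in KD+TGF-β1 libraries, against 0.543, 0.271 and 0.479 CPM in KD libraries. Cotl1, a coactosin-like protein that binds actin filaments, had 34.4, 35.1 and 34.3 CPM in KD+TGF-β1 libraries, against 0.489, 0.596 and 0.213 CPM in KD libraries. Clu, the secreted chaperone clusterin and a known marker of tubular injury, had 568, 558 and 589.8 CPM in KD+TGF-β1 libraries, against 9.66, 9.64 and 9.31 CPM in KD libraries. All 3 were close to silent or low in each KD library and plain in each KD+TGF-β1 library, with changes of 87.5-fold, 79-fold and 60-fold (log2 changes 6.45, 6.30 and 5.91, adjusted p at most 2.04e-13). In KD libraries Mcam had 10, 5 and 9 estimated counts and Cotl1 9, 11 and 4. The folds of Mcam and Cotl1, and the order of the 3 genes, are therefore imprecise. The next by size were the Src-family kinase Fgr (7.62 CPM in KD+TGF-β1 against 0.251 in KD cells, log2 change 4.88), Acta1, described below, and Has2, which makes hyaluronan (22 CPM in KD+TGF-β1 against 1.0 in KD cells, 4.44). The calcium channel subunit Cacna1g (4.43), the cathepsin Ctsw (98.3 CPM in KD+TGF-β1 against 4.55 in KD cells, 4.43), the matricellular protein Ccn4 (21.7 CPM in KD+TGF-β1 against 1.06 in KD cells, 4.35) and the TNF receptor family member Cd40 (7.5 CPM in KD+TGF-β1 against 0.413 in KD cells, 4.16) rose as well. Lce1f, a late cornified envelope gene whose reads may be shared with near copies, was at 4.25, and the adaptor Dok2 at 3.90. These 12 genes were chosen among those that did not overlap between the groups, as 72.9% of all genes tested did not.

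**Figure D2:**
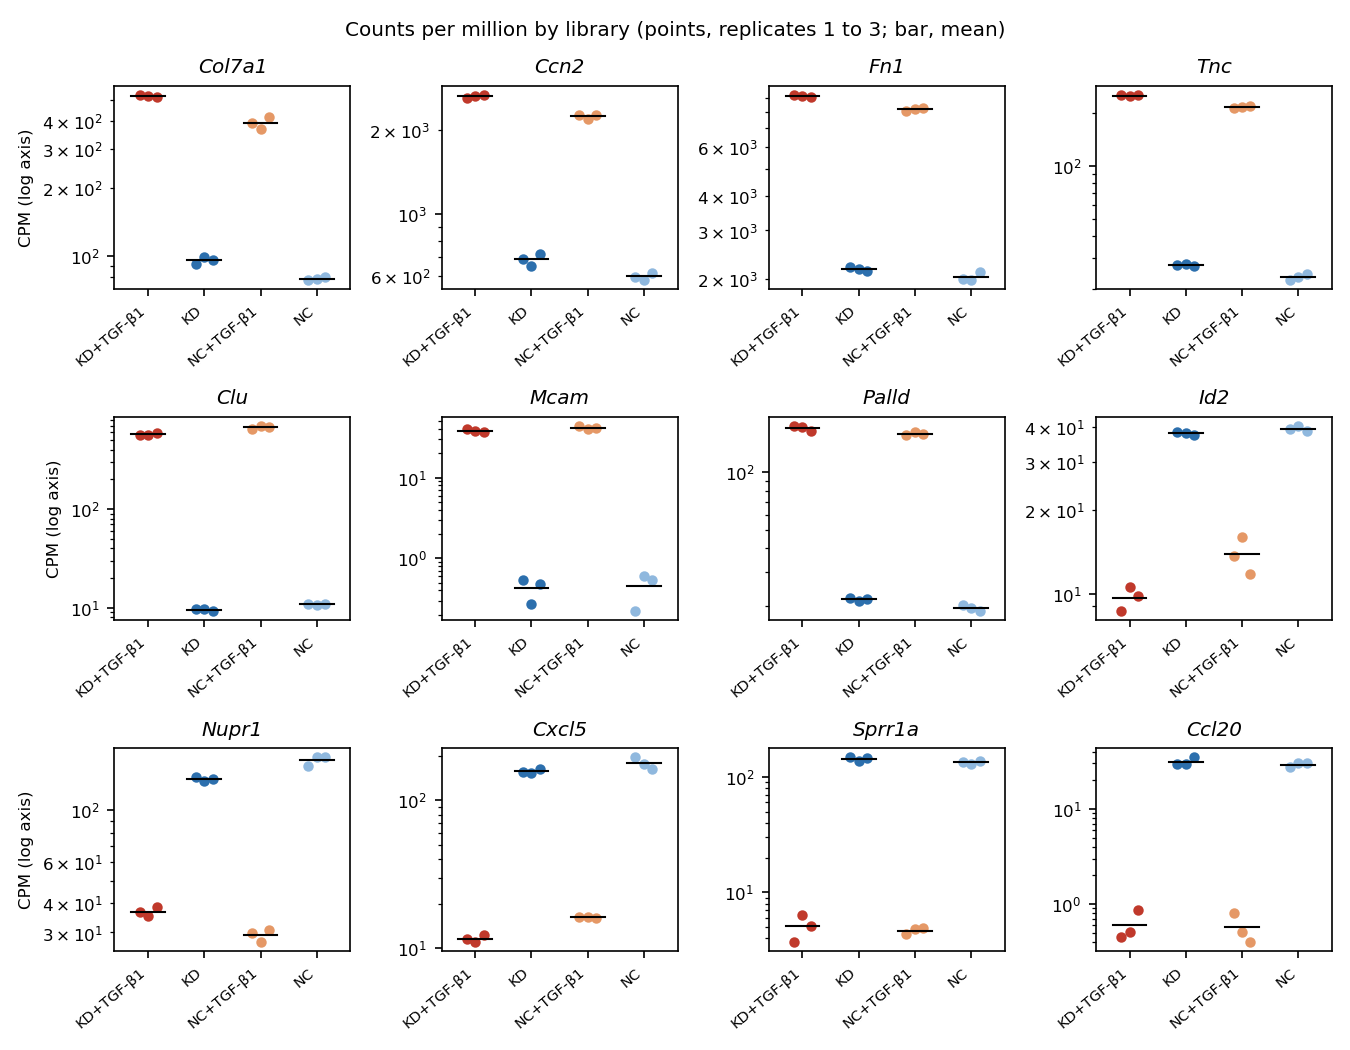
CPM on a log axis in each library (points, replicates 1 to 3) with the group mean (bar), for KD+TGF-β1, KD, NC+TGF-β1 and NC cells, 1 panel a gene. For each of the 12 genes the KD+TGF-β1 and KD libraries do not overlap, which holds for 72.9% of all genes tested. Clu stands at 558 to 590 CPM in KD+TGF-β1 libraries and 9.31 to 9.66 CPM in KD libraries, and Cxcl5 at 11.1 to 12.2 CPM in KD+TGF-β1 libraries and 153 to 164 CPM in KD libraries.

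Components of the TGF-β pathway itself moved in both directions. Of 31 tested ligands, receptors, SMADs and feedback genes, 14 were higher and 10 lower, 5 of each past 2-fold, with a median of 0.08. Feedback inhibitors were among the higher ones. Smad7, an inhibitory SMAD that blocks the type I receptor, had 141, 150 and 139.7 CPM in KD+TGF-β1 libraries, against 53.4, 55.7 and 57.7 CPM in KD libraries, without overlap (log2 change 1.37, SE 0.0430, adjusted p = 3.44e-12). Pmepa1, a membrane protein that keeps SMADs from the receptor, stood at 732 CPM in KD+TGF-β1 against 226 in KD cells (log2 change 1.70) and Skil, a corepressor of SMADs, at 231 CPM in KD+TGF-β1 against 97.4 in KD cells (1.24). The ubiquitin ligase Smurf1, the corepressor Tgif1 and the latency protein Ltbp1 rose too, by 0.74, 0.81 and 1.23 on the log2 scale. The receptor Tgfbr2 was lower, at 164, 170.3 and 165 CPM in KD+TGF-β1 libraries, against 403, 403 and 402 CPM in KD libraries (log2 change -1.27, SE 0.0307, adjusted p = 2.04e-13), and these groups did not overlap. Tgfbr1 was at 0.12 and not called. Among the SMADs that carry the signal Smad2 rose by 0.36 and Smad3 changed by -0.22, while Smad4, at 0.08, was not called. The ligand Tgfb1 stood at 2.02 CPM in KD+TGF-β1 against 4.61 in KD cells (-1.19), and the ligands Bmp7 and Bmp4 changed by -1.16 and -2.56. Tgfbr3, the coreceptor betaglycan, changed by -3.43 at 0.0569 CPM in KD+TGF-β1 against 0.683 in KD cells, a level near that of 1 count a library in KD+TGF-β1 cells.

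Of 33 tested response genes of epithelium, all were called, 27 higher and 6 lower (16 and 3 past 2-fold), with a median log2 change of 0.90. Without KD+TGF-β1 replicate 1, 26 were higher and 6 lower. Tnc, the matrix glycoprotein tenascin-C, had 252, 249.5 and 252 CPM in KD+TGF-β1 libraries, against 27.4, 27.7 and 27 CPM in KD libraries, with no overlap (log2 change 3.20, SE 0.0336, adjusted p = 4.54e-17). Ccn2, a matricellular growth factor of fibrosis, had 2595, 2638 and 2656 CPM in KD+TGF-β1 libraries, against 689, 652 and 719 CPM in KD libraries, and each KD+TGF-β1 library was above every KD library (log2 change 1.94, SE 0.0351, adjusted p = 1.25e-14). Nedd9, an adaptor of focal adhesions, stood at 60.4 CPM in KD+TGF-β1 against 9.59 in KD cells (2.65). The cytokine Il11 stood at 4.48 CPM in KD+TGF-β1 against 0.539 in KD cells (3.04), the transcription factor Snai1 at 1.45 CPM in KD+TGF-β1 against 0.197 in KD cells (2.83) and the Notch ligand Jag1 at 515 CPM in KD+TGF-β1 against 171 in KD cells (1.59). The cytostatic genes Cdkn2b, which codes for the inhibitor p15, and Cdkn1a, which codes for p21, were higher by 0.71 and 0.12. The 6 lower genes were Id2, Spp1, Hmga2, Itgb6, Id1 and Timp1. Id2, an inhibitor of basic helix-loop-helix factors that TGF-β1 is known to repress in epithelium, had 8.67, 10.5 and 9.78 CPM in KD+TGF-β1 libraries, against 38.5, 38.1 and 37.3 CPM in KD libraries (log2 change -1.98, SE 0.0887, adjusted p = 1.42e-10). The Id genes did not move together: Id1 changed by -0.53 and Id3 by 0.56.

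Genes of the actin cytoskeleton and contraction rose as a list, most of them by less than 2-fold. Of 39 tested, 31 were higher and 5 lower (7 and 2 past 2-fold), with a median of 0.46. The actins that mark contractile cells went up from almost nothing. Acta2, α-smooth muscle actin, had 169 estimated counts over the KD+TGF-β1 libraries and 4 over the KD libraries, a ratio of 43.0 with a 95% counting interval of 16.5 to 159.5. Acta1, the actin of skeletal muscle, had 297 and 12 counts, a ratio of 25.2 (14.2 to 49.3). The coding sequences of the 2 actins are so alike that their reads can be split wrongly. Per unit of transcript length Acta2 stood at 4.18 ± 0.217 in KD+TGF-β1 and 0.0567 ± 0.0289 in KD cells and the cytoplasmic actin Actb at 2191 ± 20.7 in KD+TGF-β1 and 1703 ± 54.3 in KD cells, in TPM, a level corrected for transcript length (mean ± SD, n = 3). Tagln, the actin-binding SM22, stood at 2.03 CPM in KD+TGF-β1 against 0.0358 in KD cells, a KD level too low for the size of its rise to be read closely. Palld, the actin crosslinker palladin, had 174, 172 and 164 CPM in KD+TGF-β1 libraries, against 22, 21.2 and 21.8 CPM in KD libraries, with no overlap (log2 change 2.97, SE 0.0401, adjusted p = 8.33e-16). Cald1 (caldesmon), Zyx (zyxin), Myh9 (nonmuscle myosin heavy chain) and Flna (filamin A) rose by 1.04, 1.08, 0.87 and 0.61, and the coactivator Mrtfa and its partner Srf by 0.78 and 0.46. The 5 lower genes were Lmo7 (4.93 CPM in KD+TGF-β1 against 34.2 in KD cells, -2.79), Mylk, which codes for myosin light chain kinase (4.72 CPM in KD+TGF-β1 against 23.3 in KD cells, -2.30), Actn4 (-0.13), Myh10 (-0.12) and Vcl (-0.10), the last of them not called without KD+TGF-β1 replicate 1.

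Promoter windows show the elements that some of these gene lists hold. The lists include known targets of the factors concerned, so a high share can follow from how a list was drawn up. RefSeq windows of GRCm38.p6, from 250 bases before to 50 after a start site, were searched on both strands. The CArG box, which binds Srf, was found in 8 of the 36 contractile genes with a window (22.2%), against 1.60% of all tested genes with one, and none of its 163 matches over all windows overlaps a match of another motif searched. The 4 called contractile genes with the largest increases that hold one are shown over 30 bases, 5′ to 3′ on the strand of the gene, with the CArG box in capitals, to set the element beside the change of its gene.
Acta1 (chr8:123894829-123894858, minus strand): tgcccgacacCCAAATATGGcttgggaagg
Fhl2 (chr1:43163973-43164002, minus strand): gcgcgtgtgtCCTTATATGGtcaaatgact
Srf (chr17:46556215-46556244, minus strand): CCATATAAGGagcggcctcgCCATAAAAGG
Cnn2 (chr10:79988534-79988563, plus strand): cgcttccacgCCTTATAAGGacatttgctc
Acta1 carries it at -73 from the start site, Fhl2 at -31, Srf at -82 and -62 and Cnn2 at -56. Their log2 changes were 4.67 for Acta1, 0.67 for the LIM protein Fhl2, 0.46 for Srf and 0.41 for calponin 2. A match does not go with a large change throughout, since Vcl, Actg1 and Fhl1 also hold one and were at -0.10, 0.06 and -0.04.

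Extracellular matrix transcripts moved both ways, with the larger changes upward. Of 33 tested, 18 were higher and 7 lower, 13 and 0 of them past 2-fold, and the median was 0.72. Fibronectin (Fn1) had 9226, 9174 and 9077 CPM in KD+TGF-β1 libraries, against 2211, 2176 and 2144 CPM in KD libraries, 4.21-fold and with no overlap (log2 change 2.07, SE 0.0280, adjusted p = 8.33e-16). Col7a1, the anchoring fibril collagen of epithelium, had 523, 519 and 514 CPM in KD+TGF-β1 libraries, against 91.9, 99 and 95.7 CPM in KD libraries (log2 change 2.44, SE 0.0421, adjusted p = 6.95e-15). The thrombospondin Thbs1 stood at 2679 CPM in KD+TGF-β1 against 1284 in KD cells (1.06). Fibril and microfibril collagens were scarce in these cells. Col1a1 had 5.55, 6.17 and 6.44 CPM in KD+TGF-β1 libraries, against 0.651, 0.541 and 0.957 CPM in KD libraries (log2 change 3.06, SE 0.213, adjusted p = 1.63e-08), and Col6a1 stood at 6.53 CPM in KD+TGF-β1 against 0.702 in KD cells (3.21). These 2 rose without overlap, and Col1a2 and Col3a1 had at most 8 counts in any of the 6 libraries. The laminin chains Lama3 and Lamb3 were higher (log2 changes 1.56 and 1.11). The chains Lama5 and Lamb2 were lower (-0.89 and -0.49), as was Lamc1 (-0.63). The type IV collagens split likewise, with Col4a3 and Col4a4 at 0.75 and 0.72, Col4a5 and Col4a6 at -0.84 and -0.99, and Col4a1 not called at 0.05. The 12 fibroblast markers summed to 6.29 to 7.04 CPM in KD+TGF-β1 libraries and 1.11 to 1.35 CPM in KD libraries. Col1a1 made up 98, 108 and 112 of 113, 125 and 125 counts in KD+TGF-β1 libraries, and 12, 10 and 18 of 22, 20 and 25 counts in KD libraries. Pdgfra and Pdgfrb, receptors that define fibroblasts and pericytes, had at most 4 counts in each of these 6 libraries.

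Enzymes that process the matrix were split as well. Of 17 tested genes of crosslinking and collagen processing, 8 were higher and 5 lower (2 and 4 past 2-fold; median 0.06). Bmp1, a protease that cuts procollagen, stood at 316 CPM in KD+TGF-β1 against 128 in KD cells (1.31), and the procollagen enhancer Pcolce2 at 44.4 CPM in KD+TGF-β1 against 16.8 in KD cells (1.40). Its relative Pcolce went the other way, at 32.6 CPM in KD+TGF-β1 against 80.8 in KD cells (-1.31). The lysyl oxidase Loxl4 stood at 3.73 CPM in KD+TGF-β1 against 16.9 in KD cells (-2.18), and P4ha1, a collagen prolyl hydroxylase that uses 2-oxoglutarate, at 54.2 CPM in KD+TGF-β1 against 119.9 in KD cells (-1.15), both lower. Of 23 tested proteases, plasminogen system genes and inhibitors, 9 were higher and 9 lower (median 0.07, and -0.04 without KD+TGF-β1 replicate 1). The plasminogen activators Plau and Plat fell by 0.84 and 0.83 on the log2 scale. Serpine2, an inhibitor of both, stood at 35.6 CPM in KD+TGF-β1 against 16.9 in KD cells (1.08), tissue factor F3 at 121 CPM in KD+TGF-β1 against 48.4 in KD cells (1.33) and the gelatinase Mmp9 at 3.6 CPM in KD+TGF-β1 against 0.233 in KD cells (3.91).

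Of 30 tested integrins and focal adhesion genes, 20 were higher and 6 lower (4 and 3 past 2-fold; median 0.27). Tns1, which links integrins to actin, had 93.5, 94.2 and 92.2 CPM in KD+TGF-β1 libraries, against 9.55, 10 and 8.94 CPM in KD libraries, without overlap (log2 change 3.29, SE 0.0485, adjusted p = 1.92e-15). Fermt1 (kindlin-1), an integrin activator of epithelium, stood at 576 CPM in KD+TGF-β1 against 181 in KD cells (1.67). The fibronectin receptor chains Itgb1, Itgav and Itga5 rose by 0.81, 0.91 and 0.82. Those lower included Itga3, a receptor of laminins (1500 CPM in KD+TGF-β1 against 2595 in KD cells, -0.79), and Lims2 (3.07 CPM in KD+TGF-β1 against 11.8 in KD cells, -1.94).

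**Figure D3:**
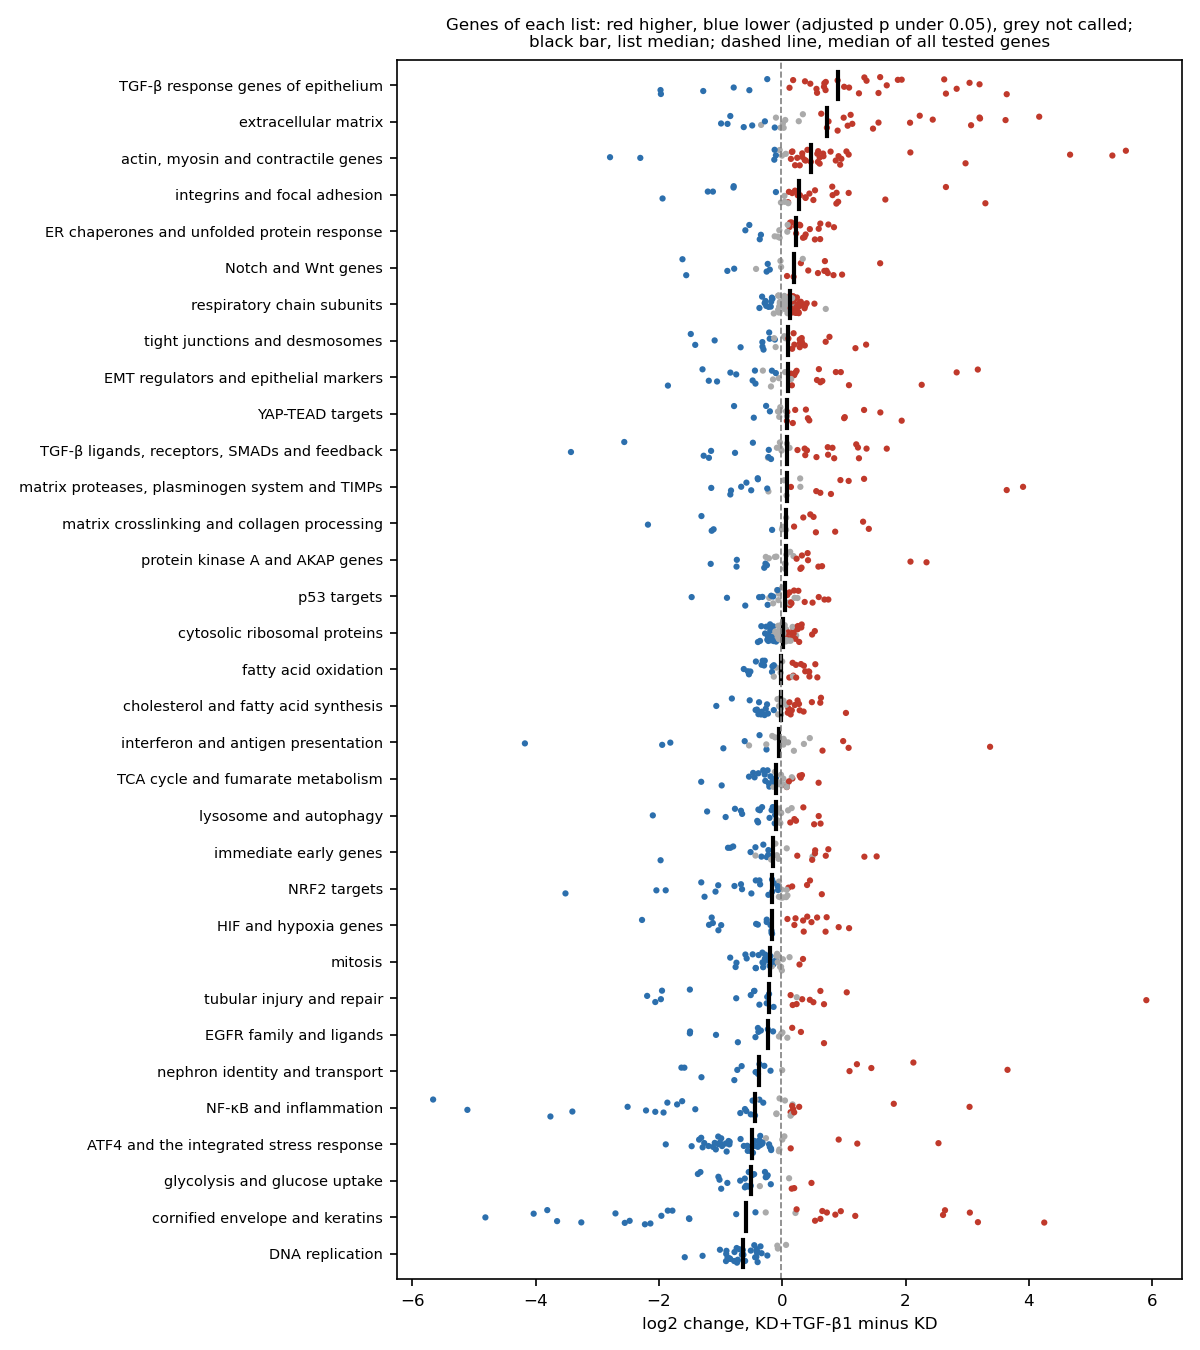
Log2 change, KD+TGF-β1 minus KD, of every tested gene (point) of each gene group drawn, sorted by the group's median (black bar), with genes called higher in red, lower in blue and not called in grey. The markers of pluripotent cells, of fibroblasts and of endothelium and blood are not drawn. The dashed line is the median of all genes tested, -0.01. The response genes of epithelium, matrix and contractile genes sit highest (medians 0.90, 0.72 and 0.46), and DNA replication, the cornified envelope and glycolysis lowest (-0.64, -0.59 and -0.51).

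The simple keratins and E-cadherin were higher, not lower, in KD+TGF-β1 cells. Of 32 tested regulators and markers of the epithelial-mesenchymal transition, 15 were higher and 11 lower (4 of each past 2-fold; median 0.09). Cdh1 (E-cadherin) had 296, 296 and 302 CPM in KD+TGF-β1 libraries, against 256, 257 and 257 CPM in KD libraries, higher in all 3 KD+TGF-β1 libraries (log2 change 0.21, SE 0.0243, adjusted p = 2.91e-06). The keratins Krt8 and Krt18 and the adhesion molecule Epcam rose by 0.95, 0.65 and 0.87, while Cdh2 (N-cadherin) was not called at -0.06. Cdh6, a cadherin of the developing nephron, stood at 293 CPM in KD+TGF-β1 against 61 in KD cells (2.26). Among the repressors of E-cadherin, Snai1 and Zeb1 were higher (2.83 and 1.08), at no more than 15.7 CPM. Twist2 was lower, at 7.69 CPM in KD+TGF-β1 against 17.6 in KD cells (-1.19). Vim (vimentin), the usual mesenchymal marker, was almost absent. It had 50, 12 and 9 counts in KD+TGF-β1 libraries and 3, 1 and 4 in KD libraries, a summed ratio of 9.03 (95% counting interval 4.34 to 21.7). The highest value is that of the library with pluripotency transcripts, and without it the log2 change was 2.02 in place of 3.17.

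Of 29 tested genes of tight junctions and desmosomes, 15 were higher and 10 lower (median 0.10), and the claudins went opposite ways. Cldn4 had 2121, 2105 and 2166 CPM in KD+TGF-β1 libraries, against 937, 949.5 and 920.3 CPM in KD libraries (log2 change 1.19, SE 0.0236, adjusted p = 3.03e-14). Cldn1 had 79.2, 83.4 and 84.6 CPM in KD+TGF-β1 libraries, against 222, 231 and 239 CPM in KD libraries (log2 change -1.48, SE 0.0598, adjusted p = 4.38e-11). Neither overlapped between the groups. Of 17 tested genes of nephron identity and transport, 5 were higher and 11 lower, with a median of -0.37. The transcription factors of the tubule Pax8 and Pax2 were lower (-0.66 and -0.39), as were the kidney cadherin Cdh16 (-0.43) and the bicarbonate cotransporter Slc4a4 (47.4 CPM in KD+TGF-β1 against 143 in KD cells, -1.59). The water channel Aqp1 stood at 23.9 CPM in KD+TGF-β1 against 11.2 in KD cells (1.09) and the factor Emx2 at 72.5 CPM in KD+TGF-β1 against 31.3 in KD cells (1.21), both higher.

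Many transcripts of squamous differentiation fell as well. They were grouped after their values had been seen. Of 32 tested genes of the cornified envelope and keratins, 13 were higher and 17 lower, 6 and 15 past 2-fold, with a median of -0.59. Sprr1a, a precursor of the cornified envelope, had 3.74, 6.34 and 5.12 CPM in KD+TGF-β1 libraries, against 148, 136 and 145 CPM in KD libraries. Its KD libraries lie far above its KD+TGF-β1 libraries, which kept 3.55% of the level (log2 change -4.82, SE 0.0950, adjusted p = 2.9e-14). Padi1, which converts protein arginine to citrulline, had 0.510, 0.629 and 0.460 CPM in KD+TGF-β1 libraries, against 7.49, 7.69 and 7.55 CPM in KD libraries and Scel (sciellin) stood at 1.6 CPM in KD+TGF-β1 against 20.2 in KD cells (log2 changes -3.81 and -3.65). Nipal4 and the transglutaminase Tgm1, which crosslinks the envelope, were at -3.26 and -2.71. Members that went up include the late envelope gene Lce1f, Sfn (14-3-3σ; 316 CPM in KD+TGF-β1 against 50.6 in KD cells, 2.64) and the basal keratins Krt14 and Krt17 (3.04 and 3.17), which stayed below 2 CPM.

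Chemokines were among the transcripts that fell furthest. Of 35 tested genes of NF-κB and inflammation, 7 were higher and 20 lower, 2 and 12 past 2-fold, with a median of -0.44. Ccl20, which draws CCR6-bearing lymphocytes, had 0.453, 0.514 and 0.863 CPM in KD+TGF-β1 libraries, against 29.5, 29.3 and 34.8 CPM in KD libraries, so that 1.97% was left (log2 change -5.66, SE 0.162, adjusted p = 1.25e-12). The neutrophil chemokine Cxcl5 had 11.5, 11.1 and 12.2 CPM in KD+TGF-β1 libraries, against 156, 153 and 164 CPM in KD libraries (log2 change -3.76, SE 0.0707, adjusted p = 1.77e-14). Cxcl1, of the same kind, had 7.31, 7.54 and 7.53 CPM in KD+TGF-β1 libraries, against 79.1, 78.6 and 79.6 CPM in KD libraries (log2 change -3.40, SE 0.0711, adjusted p = 4.87e-14). In all 3 the groups are far apart. Il33, an alarmin, had 0.567, 0.114 and 0.460 CPM in KD+TGF-β1 libraries, against 13.7, 13.1 and 13.2 CPM in KD libraries (-5.11), and Ccl2, which draws monocytes, had 1.64, 1.89 and 1.26 CPM in KD+TGF-β1 libraries, against 6.35, 5.52 and 5.64 CPM in KD libraries (log2 change -1.86, SE 0.207, adjusted p = 2.33e-06). The NF-κB subunits themselves moved little: Rela was at 0.16, and Nfkb1 and Relb, at 0.04 and -0.10, were not called, nor was the inhibitor Nfkbia (-0.09). Tlr2 (3.73 CPM in KD+TGF-β1 against 1.06 in KD cells, 1.81) and Il11 are the 2 members that rose past 2-fold. Of 22 tested interferon and antigen presentation genes, 4 were higher and 7 lower (median -0.05). Ifit3 had 3.57, 4.63 and 2.99 CPM in KD+TGF-β1 libraries, against 68.7, 66.8 and 67.1 CPM in KD libraries (-4.17), its near copy Ifit3b stood at 0.895 CPM in KD+TGF-β1 against 20.6 in KD cells (-4.52) and Ifit2 at 29.8 CPM in KD+TGF-β1 against 105 in KD cells (-1.82). Reads of Ifit3 and Ifit3b can be shared. Irf1 (29.7 CPM in KD+TGF-β1 against 14.1 in KD cells, 1.08) and B2m (0.65) rose.

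Further genes among the 12 with the largest decreases were Pdzrn3, a PDZ and RING domain protein (4.51 CPM in KD+TGF-β1 against 81.7 in KD cells, -4.18), and Baiap2l2 (0.591 CPM in KD+TGF-β1 against 5.85 in KD cells, -3.29). Markers of tubular injury and repair showed no common direction, with 10 of 25 higher and 14 lower (median -0.21). Spp1 (osteopontin) had 307, 288 and 322 CPM in KD+TGF-β1 libraries, against 1179, 1206 and 1208 CPM in KD libraries (log2 change -1.97, SE 0.0429, adjusted p = 7.24e-14), which puts its 2 groups on opposite sides from those of Clu. Havcr1 (KIM-1) stood at 0.533 CPM in KD+TGF-β1 against 2.46 in KD cells (-2.19), Vcam1 at 0.762 CPM in KD+TGF-β1 against 3.19 in KD cells (-2.06) and Sox4, a factor of repair, at 676 CPM in KD+TGF-β1 against 328 in KD cells (1.05).

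Most genes of the ATF4 program, through which cells raise amino acid uptake, serine and one-carbon synthesis and tRNA charging under stress, fell. Of 51 tested genes 42 were lower and 4 higher, 13 and 2 past 2-fold, and the median was -0.49. Without KD+TGF-β1 replicate 1 the counts were 43 lower and 2 higher. Nupr1, a stress-induced chromatin protein, had 36.7, 35.1 and 38.5 CPM in KD+TGF-β1 libraries, against 139, 134 and 136 CPM in KD libraries, without overlap (log2 change -1.89, SE 0.0494, adjusted p = 5.11e-13). Gdf15, a stress cytokine, had 232, 260.5 and 245 CPM in KD+TGF-β1 libraries, against 684, 642 and 718 CPM in KD libraries (log2 change -1.47, SE 0.0442, adjusted p = 2.18e-12). Vldlr, a lipoprotein receptor, had 15.2, 13.8 and 15.8 CPM in KD+TGF-β1 libraries, against 39.9, 36.6 and 37.9 CPM in KD libraries (-1.35), and Pck2, the mitochondrial PEP carboxykinase, stood at 66.4 CPM in KD+TGF-β1 against 165 in KD cells (-1.31). Enzymes of serine synthesis and its use were lower, with Psat1 at -1.12, Shmt2 at -0.85, Mthfd2 at -0.68 and Phgdh at -0.57. The transporters Slc7a5 and Slc1a5 were at -1.08 and -0.92, and the tRNA synthetase Wars at -0.98. Atf4 itself fell by 0.38 on the log2 scale. The 4 members that rose were Fgf21 (2.11 CPM in KD+TGF-β1 against 0.359 in KD cells, 2.53), Slc7a3 (1.22), Ddit4 (334 CPM in KD+TGF-β1 against 177 in KD cells, 0.92) and Atf5 (0.14), and Slc7a3 and Atf5 were not called without replicate 1 of KD+TGF-β1.

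The letters TGATGCA, the core of the element that ATF4 and C/EBP factors bind together, occur in 15 of the 42 genes of this list with a promoter window (35.7%), against 2.50% of all tested genes with one, on either strand. Of the 253 matches over all windows, 2 overlap a match of another motif searched. The list was drawn up from genes of the ATF4 program, and the high share can follow from that. The 8 called members with the largest changes that hold a match before their start site are shown over 30 bases on the strand of the gene, with the element, or its reverse complement, in capitals.
Fgf21 (chr7:45615611-45615640, minus strand): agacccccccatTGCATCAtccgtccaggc
Nupr1 (chr7:126625562-126625591, minus strand): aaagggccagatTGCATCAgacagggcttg
Gdf15 (chr8:70632677-70632706, minus strand): agttctgggcagTGCATCAggggtggggct
Vldlr (chr19:27216809-27216838, plus strand): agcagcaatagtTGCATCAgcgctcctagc
Chac1 (chr2:119351038-119351067, plus strand): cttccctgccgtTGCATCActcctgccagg
Slc7a11 (chr3:50443652-50443681, minus strand): gcTGATGCAaacctggagaattTGCATCAt
Jdp2 (chr12:85599371-85599400, plus strand): tatagccggggcTGATGCAacccgtcccgc
Slc6a9 (chr4:117849215-117849244, plus strand): ccctcgctgggcTGCATCAggactggccag
Of these 8 genes 7 fell and Fgf21 rose. Slc7a11 holds them at -66 and -46, once on each strand.

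Sugar breakdown and antioxidant genes were lower too. Of 25 tested genes of glycolysis and glucose uptake, 20 were lower and 3 higher, with a median of -0.51. Pfkl, the liver-type phosphofructokinase, had 65.3, 64.6 and 65.3 CPM in KD+TGF-β1 libraries, against 170, 166 and 169 CPM in KD libraries (log2 change -1.37, SE 0.0391, adjusted p = 1.23e-12). Ldha, Pgk1 and Eno1, abundant enzymes of the pathway, were at -0.89, -0.68 and -0.61, and Gapdh at -0.28. The 3 higher genes were Pfkfb4, Ldhb and Hk2, at 0.47, 0.19 and 0.15. Of 26 tested HIF and hypoxia genes 12 were higher and 14 lower (median -0.17; 10 and 13 without KD+TGF-β1 replicate 1), with the regulators of sugar use Pfkfb3 (-1.04) and Pdk1 (-0.99) lower and the growth factor Vegfa (0.70), Ndrg1 (0.72) and the repressor Bhlhe40 (1.08) higher. Of 33 tested NRF2 targets 20 were lower and 5 higher, 7 and 0 past 2-fold (median -0.16). The glutathione transferase Gstm1 had 13.5, 13.9 and 14 CPM in KD+TGF-β1 libraries, against 58, 58.5 and 54.2 CPM in KD libraries (log2 change -2.04, SE 0.0619, adjusted p = 2.36e-12), and reads of its near copies can be shared. The exporter Abcc3 stood at 8.85 CPM in KD+TGF-β1 against 32.8 in KD cells (-1.89). Hmox1 (heme oxygenase 1) had 38, 38.9 and 43.8 CPM in KD+TGF-β1 libraries, against 38.3, 38.6 and 37.9 CPM in KD libraries, overlapping and not called (log2 change 0.07, adjusted p = 0.33). Ferritin light chain (Ftl1; 3935 CPM in KD+TGF-β1 against 2523 in KD cells, 0.64) rose and ferritin heavy chain (Fth1; -0.50) fell.

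The mitochondrial and lipid pathways moved less. Of 35 tested genes of the tricarboxylic acid cycle and fumarate metabolism, 7 were higher and 16 lower (median -0.10), with Idh1 at 0.59, Got1 at -0.54 and pyruvate carboxylase Pcx at -0.98. The enzyme before Fh1 in the cycle, succinate dehydrogenase, had Sdha and Sdhb not called, at -0.05 and -0.0036, and the one after it, Mdh2, at 0.11. Fatty acid oxidation had 13 of 30 higher and 12 lower (median -0.01) and cholesterol and fatty acid synthesis 14 of 39 each way (median -0.02). The SREBP regulator Insig1 rose most within the last of these lists (255 CPM in KD+TGF-β1 against 125 in KD cells, 1.03). Of 71 subunits of the respiratory chain, a group drawn up after values were seen, 33 were higher and 10 lower, none past 2-fold (median 0.13). Of 78 ribosomal proteins, likewise grouped later, 17 were higher and 20 lower, none past 2-fold (median 0.01).

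Genes of DNA replication were lower almost throughout. Of 35 tested, 32 were lower and 0 higher, and the median was -0.64. The remaining 3, E2f2, Rfc3 and Slbp, were at -0.08, -0.07 and 0.06 and not called. Tk1, thymidine kinase, had 36.5, 39.1 and 36.7 CPM in KD+TGF-β1 libraries, against 119.5, 102 and 115 CPM in KD libraries, without overlap (log2 change -1.58, SE 0.0704, adjusted p = 1.28e-10). Rfc5 of the clamp loader (27.8 CPM in KD+TGF-β1 against 68.1 in KD cells, -1.29), Mcm10 (-1.01) and cyclin Ccne1 (-0.91) followed. Of 35 tested genes of mitosis, 22 were lower and 2 higher, none past 2-fold (median -0.21). Cdc25b, a phosphatase of mitotic entry, stood at 51.8 CPM in KD+TGF-β1 against 93 in KD cells (-0.84), while Plk1, Cdc20 and Ccnb2 were not called (-0.09, -0.02 and -0.03). Of 30 p53 targets 12 were higher and 9 lower (median 0.04, and -0.02 without KD+TGF-β1 replicate 1), Btg2 (164 CPM in KD+TGF-β1 against 97.8 in KD cells, 0.75) among the higher.

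Other signalling groups were mixed. Among 22 YAP-TEAD targets 12 were higher and 4 lower, 5 and 0 past 2-fold, although the median was 0.08. Beside Ccn2 these 5 were Ccn1 (699 CPM in KD+TGF-β1 against 348 in KD cells, 1.004), F3, Nuak2 (1.01) and Dlc1 (1.59), while Ankrd1 was at 0.08 and not called without KD+TGF-β1 replicate 1. The letters GGAATG, a TEAD site, are in 12 of the 16 of these genes with a window (75.0%), against 14.3% of all tested genes. Among immediate early genes 8 of 26 were higher and 11 lower (median -0.15), with the AP-1 subunits Junb (380.4 CPM in KD+TGF-β1 against 151 in KD cells, 1.33) and Fosb (15.9 CPM in KD+TGF-β1 against 5.5 in KD cells, 1.53) higher and Fosl1 (-0.88) and Egr1 (-1.97) lower. The AP-1 site TGANTCA is in 14.2% of the windows' genes that were called higher past 2-fold and 10.4% of those called lower past 2-fold, against 6.40% of all tested genes. An example of each is shown over 30 bases, with the site in capitals: the AP-1 site of Il11 at -98 and the TEAD site of Ccn1, on the opposite strand, at -103.
Il11 (chr7:4778222-4778251, minus strand): caggagggagggTGAGTCAggatgtgtcag
Ccn1 (chr3:145650071-145650100, minus strand): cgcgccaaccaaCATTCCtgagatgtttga
The element GTCTAGA, which SMADs can bind, is in 4.07% of the genes called higher past 2-fold, 1.89% of those called lower and 2.57% of all. Of all matches 10 of 679 for AP-1, 12 of 1588 for TEAD and 0 of 289 for the SMAD element overlap one of another motif. These shares describe the letters of the windows and were not tested, and that of the YAP-TEAD list can follow from how the list was drawn up.

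The EGFR family was lower on balance, with 10 of 17 lower and 3 higher (median -0.23). The ligands Areg (-1.50) and Ereg (-1.07) fell, and Hbegf (277 CPM in KD+TGF-β1 against 173 in KD cells, 0.68) rose. Of 23 Notch and Wnt genes 12 were higher and 7 lower (median 0.18), led by Jag1 and the receptor Fzd2 (0.97) on the one side and Wnt4 (-1.56) on the other. Of 26 genes of protein kinase A and its scaffolds 10 were higher and 6 lower (median 0.06), with the regulatory subunit Prkar2b (43.9 CPM in KD+TGF-β1 against 98.1 in KD cells, -1.16) lower and Akap12 and Akap8l (0.65) higher. Of 27 ER chaperones and genes of the unfolded protein response 17 were higher and 4 lower (median 0.22). Xbp1, the spliced regulator of this response, stood at 99.8 CPM in KD+TGF-β1 against 59.5 in KD cells (0.75), and Selenos (0.84), Manf (0.62) and Pdia3 (0.61) rose with it. Lysosome and autophagy genes had 7 of 32 higher and 16 lower (median -0.11), and the factors Mitf (-2.10) and Tfeb (-1.22), which drive this program, were both lower.

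In TPM the largest gain was that of ferritin light chain Ftl1, at 8914 ± 250.8 in KD+TGF-β1 and 5789 ± 134 in KD cells (mean ± SD, n = 3). Tmsb4x (thymosin β4, which binds free actin) stood at 3110 ± 47.5 in KD+TGF-β1 and 1375 ± 30.2 in KD cells. Ccn2, Fn1 and the ribosomal protein gene Rpl38 came next. Fibronectin stood at 1797 ± 25.5 in KD+TGF-β1 and 429 ± 6.08 in KD cells. The largest loss was that of S100a6, a calcium-binding protein, at 6807 ± 139 in KD+TGF-β1 and 11280 ± 411 in KD cells. Wfdc2, a secreted protease inhibitor of epithelium, stood at 1742 ± 32.3 in KD+TGF-β1 and 3334 ± 119.5 in KD cells, and the ribosomal protein genes Rpl41, Rps15 and Rps26 were the others of the 5 largest losses. The groups did not overlap for any of these 10 genes, which were taken from the called genes. Of the 7616 called genes, 7491 did not overlap.

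The response of silenced cells was set against that of control cells through the interaction term of the same fit. A shift between the tables that is the same in both kinds of cell drops out of this difference. Of the genes tested, 104 (0.888%) were called, 55 with a positive difference (0.470%) and 49 with a negative one (0.419%), and 13 were past 1.5-fold. In comparison 7511 genes (64.2%) were called in control cells, and 6530 genes were called in the same direction in both. The control libraries without TGF-β1 differed among themselves more than those of any other group, with a chi-square per gene of 13.45 between NC replicates 1 and 3, 7.19 between 1 and 2 and 3.55 between 2 and 3, against 1.67 to 3.39 within the other groups. NC replicate 1 stood apart on the second principal component, at -20.0, with the other NC libraries at -3.69 and 6.05, and without it 109 genes were called. The count rests on single libraries: 57 of the 104 were also called without KD+TGF-β1 replicate 1, and the count was 38 to 147 with 1 library of the 12 left out.

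ATF4 genes were 19 of the 55 genes with a called positive difference. None of the 51 tested was called negative, and the median difference was 0.22 (all genes 0.01). This list, like the others, was chosen with earlier results of these data known. The difference was above 0 for 51 of 51 of the ATF4 genes and for 6301 of the 11707 genes tested. Signs were uneven in some other lists as well. Positive differences numbered 6 of 35 in mitosis, 7 of 35 in DNA replication and 9 of 35 in NF-κB and inflammation. They numbered 8 of 39 in cholesterol and fatty acid synthesis and 25 of 33 in NRF2 targets. With 1 library of the 12 left out, 10 to 22 ATF4 genes were called and 48 to 51 were above 0. The count was 12 without KD+TGF-β1 replicate 1, 10 without KD+TGF-β1 replicate 3 and 12 without KD replicate 1 or 2. The program was lower with TGF-β1 in both kinds of cell, with medians of -0.49 in silenced and -0.70 in control cells. Slc7a11, the cystine transporter, had 17.4, 15.2 and 17.4 CPM in KD+TGF-β1 libraries, against 33, 34.7 and 35 CPM in KD libraries, and 10.2, 11.2 and 10.3 CPM in NC+TGF-β1 and 49.7, 39.2 and 34.3 CPM in NC libraries. Its KD+TGF-β1 libraries lie above those of NC+TGF-β1 while its KD and NC libraries overlap, and the 2 log2 changes were -1.04 and -1.96 (difference 0.92, adjusted p = 0.0187, and 0.0621 without KD+TGF-β1 replicate 1). Nupr1 changed by -1.89 in silenced and -2.48 in control cells (difference 0.59, adjusted p = 0.0013). Chac1, which degrades glutathione, had 30.8, 31.9 and 31.6 CPM in KD+TGF-β1 libraries, against 67.5, 65.1 and 68.8 CPM in KD libraries, and 25.4, 26.9 and 26.1 CPM in NC+TGF-β1 and 79.8, 82.1 and 86.2 CPM in NC libraries (difference 0.57, adjusted p = 0.000844, and 0.00248 without that library). The pseudokinase Trib3 (difference 0.49), the glycine transporter Slc6a9 (0.53) and Pck2 (0.28) were called as well. Gdf15 was not, with -1.47 in silenced and -1.50 in control cells. Because the extent of silencing also differed between KD+TGF-β1 and KD libraries, a response to the cytokine and a response to lower Fh1 cannot be told apart here.

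**Figure D4:**
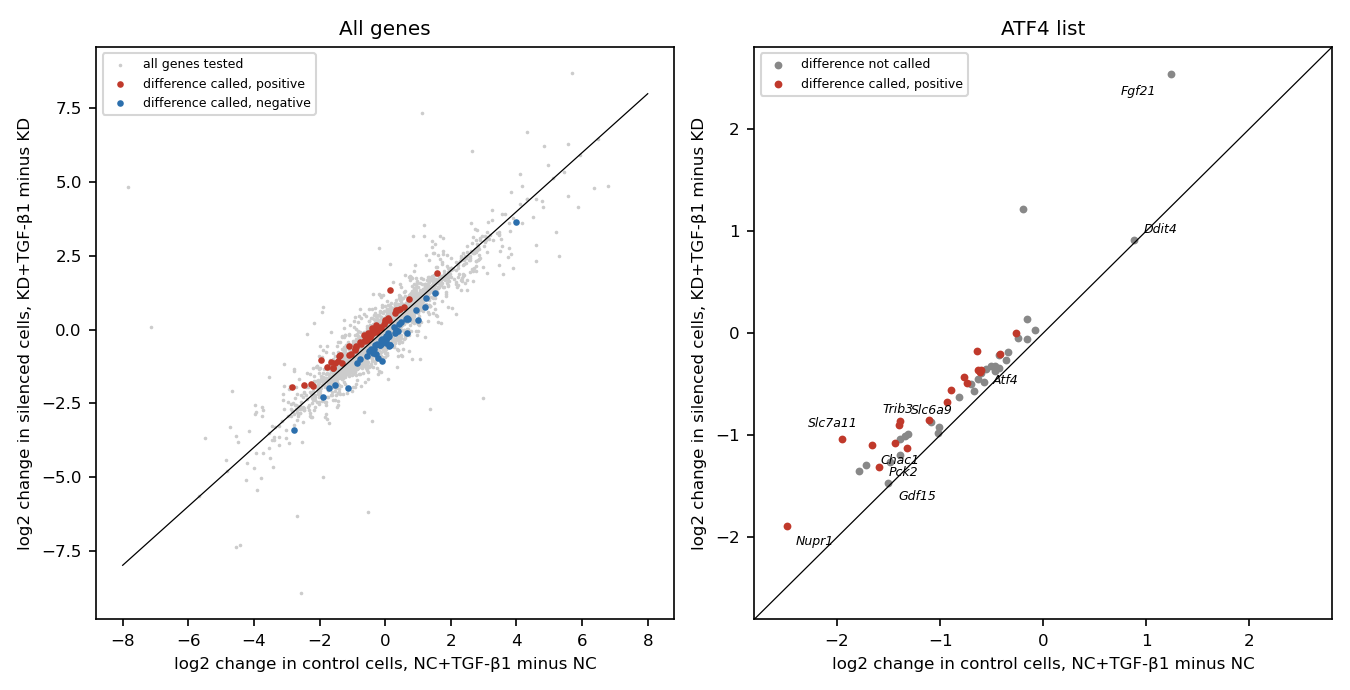
Log2 change with TGF-β1 in silenced cells (KD+TGF-β1 minus KD, vertical) against that in control cells (NC+TGF-β1 minus NC, horizontal), for all 11707 genes tested (left) and the 51 tested ATF4 genes (right). The line marks equal change. Genes with a called difference are red (positive, 55) or blue (negative, 49), and each of the 51 ATF4 genes lies above the line.

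Outside that program, among genes of at least 5 CPM in a group and with a full gene name, Lims2, an adaptor of focal adhesions (0.90), the chromatin protein Hmga2 (0.50) and the ATP-gated channel P2rx4 (0.54) had the largest positive differences. Hmga2 had 159.8, 170.5 and 174 CPM in KD+TGF-β1 libraries, against 407, 399 and 421 CPM in KD libraries, and 142, 146 and 136 CPM in NC+TGF-β1 and 510.4, 486 and 464 CPM in NC libraries. On the negative side stood Fh1 itself and several inflammatory genes. Lcn2, the injury marker NGAL, had 169, 167 and 172 CPM in KD+TGF-β1 libraries, against 245, 246 and 233 CPM in KD libraries, and 268, 278 and 276 CPM in NC+TGF-β1 and 244, 254 and 251.4 CPM in NC libraries. It fell in silenced cells and rose in control cells (-0.51 and 0.13; difference -0.65, adjusted p = 8.18e-06, and 7.08e-05 without KD+TGF-β1 replicate 1). Of the 35 tested genes of NF-κB and inflammation 4 were called, all negative: Lcn2, Cxcl1 (-0.64), Cx3cl1 (-0.47) and Tnfaip3 (-0.24). Egr1 had 10.8, 11.4 and 10.9 CPM in KD+TGF-β1 libraries, against 44.1, 44 and 42 CPM in KD libraries, and 10.7, 11.9 and 10.6 CPM in NC+TGF-β1 and 25.1, 22.1 and 25.8 CPM in NC libraries. Its TGF-β1 libraries overlap between silenced and control cells and its KD libraries lie above those of NC (difference -0.84, adjusted p = 0.0013). Tanc2 (-0.67), Cd209c (-0.69) and the linker histone H1f2 (-0.75), whose reads can be shared with paralogs, were called on the same side. With any 1 of the 12 libraries left out, Fh1, Egr1, Lcn2, Hmga2, Trib3, Slc6a9, Chac1 and Nupr1 were still called. Cd209c, Cxcl1, H1f2, Lims2, P2rx4, Slc7a11 and Tanc2 each lost the call in at least 3 of these 12 fits.

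No difference was called for 4 of the markers of fibrosis. Fn1 rose by 2.07 in silenced and 2.01 in control cells (difference 0.07, SE 0.0381, adjusted p = 0.545), and Ccn2 by 1.94 and 1.90 (difference 0.03, SE 0.0481). Col1a1 rose by 3.06 and 3.16 (difference -0.09, SE 0.361) and Acta2 by 5.36 and 5.45 (difference -0.10, SE 0.689). The errors of the last 2 leave room for differences past 1.5-fold. Of the contractile, matrix and epithelial response lists, 1 of 39, 1 of 33 and 5 of 33 genes were called in the difference, with medians of -0.01, 0.02 and -0.01. Each is a larger share than the 0.888% of all genes tested, but in lists this short a single call already gives that. Of the 5 epithelial response genes, 2 differences were positive and 3 negative. Among genes of matrix crosslinking and collagen processing 1 of 17 was called (median 0.01). Among proteases, plasminogen system genes and inhibitors 2 of 23 were called (median -0.002). The called differences of these lists were all negative.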

How the data were processed

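RNA was sequenced from 12 libraries of a mouse tubular epithelial cell line, extracted with TRIzol and prepared with a BGI dual-mode mRNA kit, per the labels' protocols. Per the file headers, the 2 deposited tables give an estimated count and a TPM value for each transcript, 1 table for cells without TGF-β1 and 1 for cells with it. RSEM 1.3.1, HISAT2, Bowtie2, DESeq2 1.34.0 and hg38, a human build, are named in the submitters' processing notes, with no role for each; which reference was used for these mouse transcripts is not given in the sources used here. The deposited tables hold a further 40 value columns that were not used. Strandedness is not given in the sources used here, so reads of overlapping antisense genes cannot be told apart.

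Estimated counts were summed per Entrez gene listed in both tables (15802 genes) and rounded. Gene symbols came from the RefSeq table, which named 15690 of these genes. The test was that of edgeR 4.0.16, run in R 4.3.3 (quasi-likelihood test, TMM scaling, filterByExpr, 4 group terms over the 12 libraries), with Benjamini-Hochberg adjustment over all 11707 genes tested. A gene was called at an adjusted p under 0.05. The difference between silenced and control cells is the interaction term of that fit. Alternatives were DESeq2 1.42.0, limma 3.58.1 on log2(TPM + 1), other filters and scaling, and leaving out each library. On simulated counts the test of the response recovered 56.9% of 1.25-fold, 84.3% of 1.5-fold and 95.5% of 2-fold changes, and the test of the difference 25.6%, 75.3% and 90.4%. Each simulation changed 195 to 198 of the genes tested by 1 fixed fold, in KD+TGF-β1 only. The spread of a gene was the same in all groups. In the data 65.1% of genes were called and NC libraries varied more, so these rates may not hold there. Replicate numbers did not pair KD+TGF-β1 with KD libraries (correlations of their deviations -0.09, -0.01 and -0.04). Counting intervals are exact binomial ones on summed counts and cover counting error only.

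The members and gene lists were chosen with earlier results of these data known. Genes were named by rule. Akap12, Fh1 and 12 markers were named. The 12 largest called increases and the 12 largest called decreases were taken at 5 CPM or more without overlap. They also had to be called in the same direction without KD+TGF-β1 replicate 1. Up to 4 genes a list were taken by size of change under these conditions. Where none met them, the gene with the smallest p was taken. The rest were the 8 largest called differences each way and the 5 largest gains and losses in TPM. Some genes that meet this rule are not reported here. Other list members were named after their values were seen. Promoter windows were searched in RefSeq sequence of GRCm38.p6, which was found for 9373 of the genes tested.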

Additional observations from a re-analysis of the deposited data

Results flagged for a closer look

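A set of results stood out because the interaction term of the fit separated the TGF-β1 response of silenced cells from that of control cells. This held for 104 genes, of which 19 are named here, each with its difference on the log2 scale, silenced minus control. Of these 19 genes Fh1 (-0.98), Egr1 (-0.84), H1f2 (-0.75), Cd209c (-0.69), Tanc2 (-0.67), Lcn2 (-0.65) and Cxcl1 (-0.64) had the largest negative values. Smaller negative differences were found for the collagen prolyl hydroxylase P4ha1 (-0.30), Spp1 (-0.27) and the repressor Bhlhe40 (-0.17). Positive ones were found for Pck2 (0.28), Trib3 (0.49), Hmga2 (0.50), Slc6a9 (0.53), P2rx4 (0.54), Chac1 (0.57), Nupr1 (0.59), Lims2 (0.90) and Slc7a11 (0.92).

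Fh1 changed by -1.07 in silenced cells, against -0.09 in control cells, so the differences above coincide with a change in the level of the silenced gene, whose part in them cannot be told apart from the response to the cytokine.

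Counts outside the tests also stood out. KD+TGF-β1 replicate 1 held 558 counts of 12 pluripotency markers that were not tested, above the 0 to 2 counts of the other 11 libraries.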

How the results depend on the processing

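The count of the response moved by less than 1.5 times under each alternative other than a fold threshold, from 6880 genes with DESeq2 to 8115 with the 6 silenced libraries alone. A log2 change of at least 1 left 1140 genes, 470 higher and 670 lower. With 1 silenced library left out, 7114 to 7155 genes were called, 3407 to 3468 higher and 3676 to 3717 lower. No gene named by the rule changed the direction or side of its call in the response. The largest increases and decreases and most genes named from lists had to keep their call without KD+TGF-β1 replicate 1. That fit could therefore not move them. Vcl, Slc7a3, Atf5 and Ankrd1, named outside the rule, were not called without KD+TGF-β1 replicate 1. List medians that turned sign were those of nephron identity (0.06) and the TGF-β pathway (-0.02) without the filter on low counts, EMT (-0.003) with transcripts in both tables only, proteases (-0.04) and p53 targets (-0.02) without KD+TGF-β1 replicate 1, ribosomal proteins with limma (-0.02) and without replicate 3 of KD+TGF-β1 (-0.009) or KD (-0.01), and endothelium and blood with limma (-0.24). That of the pluripotent markers was 0.04, and negative without KD+TGF-β1 replicate 1 (-0.07), without KD replicate 1 (-0.05) and with the silenced libraries alone (-0.24). The replicate numbers do not pair the libraries, and with a replicate block 7514 genes were called in the response.

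The difference between silenced and control cells was less stable. A log2 change of at least 1 left 1 gene, 1700049E17Rik1, which is positive, and 0 negative ones; a near copy of that gene, 1700049E17Rik2, was called with the opposite sign, and reads can be split between them. The gene was singled out after its value was seen. With DESeq2 size factors 36 genes were positive, and with a replicate block 54 were called, 30 positive and 24 negative. Leaving out 1 library gave 38 to 147 called genes, 16 to 61 positive and 19 to 86 negative. The count fell past 1.5 times without any silenced library (38 to 61), without NC+TGF-β1 replicate 1 (66) or 3 (60) and without NC replicate 2 (67). Of 284 repeats of named genes, 67 lost their call and none reversed. The cause was not tested. Differences under 1.5-fold are often missed at this depth and number of libraries.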

Other observations

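Genes outside the lists that rose and that were singled out after their values were seen include secreted growth factors. Pdgfb, a mitogen of mesenchymal cells, had 902, 982 and 947 CPM in KD+TGF-β1 libraries, against 228, 221 and 227 CPM in KD libraries (log2 change 2.07, SE 0.0343, adjusted p = 4.85e-15), with no overlap. Its relatives Pdgfa and Pdgfc stood at 130.3 CPM in KD+TGF-β1 against 48.8 in KD cells and 169 CPM in KD+TGF-β1 against 54.5 in KD cells (log2 changes 1.42 and 1.63). Fgf1, which has no signal peptide for secretion, stood at 82.8 CPM in KD+TGF-β1 against 12.4 in KD cells (2.73). The kinase Sgk1, which controls sodium transport in the distal nephron, had 115, 119 and 118 CPM in KD+TGF-β1 libraries, against 13.5, 11.9 and 13.5 CPM in KD libraries (log2 change 3.18, SE 0.0508, adjusted p = 4.3e-15), and each KD+TGF-β1 library lies above every KD library. The guidance receptors Ephb2 (91.4 CPM in KD+TGF-β1 against 10.4 in KD cells, 3.13) and Unc5b (262 CPM in KD+TGF-β1 against 46.9 in KD cells, 2.48) rose as well, and the secreted guidance factor Sema3c fell (124 CPM in KD+TGF-β1 against 491 in KD cells, -1.99). Tfrc, the transferrin receptor, had 103, 93.3 and 99.6 CPM in KD+TGF-β1 libraries, against 364, 365 and 399.7 CPM in KD libraries (log2 change -1.93, SE 0.106, adjusted p = 1.28e-09), again without overlap, beside the higher ferritin light chain and the lower ferritin heavy chain. Peg3, an imprinted zinc finger gene, had 168, 160 and 167 CPM in KD+TGF-β1 libraries, against 991, 973 and 1040 CPM in KD libraries (log2 change -2.60, SE 0.0813, adjusted p = 3.29e-12).

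By transcript length the response showed a small trend. Over 5 classes of genes of equal size, the median log2 change rose with each step in length. It was -0.05 in the class of shortest and 0.03 in that of longest transcripts, and 9.05% to 10.2% of a class passed 2-fold.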
